A study of Homo sapiens with 6 samples.

Results

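This account covers 35 genes of glucose uptake, glycolysis, lactate handling and the response to low oxygen, chosen by name for what their products do. All 35 were found among the 60131 genes of the deposited RPKM table (reads scaled by gene length and library size) and, through their Entrez identifiers, among the 28395 genes of the deposited normalized count table. RNA was sequenced from K562, an established human leukaemia cell line, in 3 libraries labelled wild type for RUNX1 (WT) and 3 labelled R320*, a premature stop in the C-terminal part of the RUNX1 transcription factor. Cells of both genotypes grew in RPMI-1640 with 10% fetal bovine serum, and the study compared their transcripts. How the R320* cells were made, whether they are 1 clone, whether libraries came from separate cultures and what oxygen or glucose level the cells met is not stated in the labels.

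In glycolysis, glucose enters through membrane transporters, is phosphorylated by a hexokinase and is split and oxidised to pyruvate. Most steps can be run by more than 1 isozyme, and tissues differ in which isozyme they use. Pyruvate is either reduced to lactate and exported or passed into mitochondria through pyruvate dehydrogenase, which pyruvate dehydrogenase kinases switch off. Low oxygen raises many of these genes through the hypoxia-inducible factor (HIF), a pair of an oxygen-regulated alpha subunit and ARNT. With oxygen present, EGLN enzymes hydroxylate the alpha subunit and VHL marks it for destruction, so HIF activity is set largely at the protein level, which RNA counts do not show. In developing blood cells, glucose transporters and red-cell isozymes such as PKLR also change with erythroid maturation.

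If the smallest value above 0 in each library stands for 1 read, the libraries held between 29058471 and 31306435 assigned reads. Pairs of libraries of 1 genotype differed by a chi-square of 5.22 to 8.67 per gene, so none were copies of each other. RUNX1 itself was counted at 2969, 2922 and 2908 in WT and 5209, 5026 and 5261 in R320*, and gene counts do not show the stop codon. All 8 of the K562 marker genes examined, GATA1, TAL1 and KLF1 among them, were present in every library. Of 21 markers of other cell types, the T-cell marker CD2 and the endothelial marker CDH5 were at 0 throughout. The epithelial markers KRT5 and KRT14 had reads in R320* replicate 3 alone (21.0 and 11.4 normalized counts). The summed epithelial list stood at 1884 to 1991 in WT and 5865 to 6281 in R320*, nearly all of it KRT19. Other list sums were lower in R320* without overlap: T and NK cells at 749 to 788 against 455 to 535, monocytes at 57.6 to 69.8 against 11.4 to 21.6, and fibroblasts at 3424 to 3516 against 2691 to 2920. These falls lay mostly in CD3D, LYZ and COL1A2, and not every marker fell. NKG7, CD14 and FCGR3A overlapped between genotypes, and COL1A1 was higher in R320* (62.8, 68.8 and 62.7 against 111, 74.4 and 119). The B-cell and endothelial lists overlapped between genotypes, and the part of these markers in the results below was not tested.

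HIF binds DNA at a core of A/GCGTG, so the 250 bases before RefSeq gene starts were searched for ACGTG and GCGTG on both strands (RefSeq, GRCh38.p14). The sequences below belong to members with the largest changes whose window lies wholly before the gene: SLC2A1, HK2, EGLN3 and ALDOC were higher in R320*, and PDK3 and ENO2 were lower. Each runs 5′ to 3′ on the gene's own strand. Capitals mark ACGTG or GCGTG, or their reverse complements CACGT and CACGC; a palindrome CACGTG counts on each strand.
SLC2A1 (chr1:42958869-42959118, minus strand): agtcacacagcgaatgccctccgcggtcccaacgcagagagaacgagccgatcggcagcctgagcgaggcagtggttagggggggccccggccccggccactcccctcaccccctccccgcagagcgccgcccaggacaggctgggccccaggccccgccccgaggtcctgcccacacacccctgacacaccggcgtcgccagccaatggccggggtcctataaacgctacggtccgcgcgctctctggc
HK2 (chr2:74833877-74834126, plus strand): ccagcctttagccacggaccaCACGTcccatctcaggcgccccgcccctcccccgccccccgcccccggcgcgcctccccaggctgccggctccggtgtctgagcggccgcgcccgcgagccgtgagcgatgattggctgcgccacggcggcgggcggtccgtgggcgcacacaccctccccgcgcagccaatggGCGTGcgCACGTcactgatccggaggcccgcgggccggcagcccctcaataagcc
EGLN3 (chr14:33951075-33951324, minus strand): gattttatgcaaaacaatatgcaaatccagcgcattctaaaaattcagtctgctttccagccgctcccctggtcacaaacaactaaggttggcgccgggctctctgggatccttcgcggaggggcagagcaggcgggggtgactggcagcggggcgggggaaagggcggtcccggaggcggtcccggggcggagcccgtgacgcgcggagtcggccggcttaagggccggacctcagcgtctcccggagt
ALDOC (chr17:28576896-28577145, minus strand): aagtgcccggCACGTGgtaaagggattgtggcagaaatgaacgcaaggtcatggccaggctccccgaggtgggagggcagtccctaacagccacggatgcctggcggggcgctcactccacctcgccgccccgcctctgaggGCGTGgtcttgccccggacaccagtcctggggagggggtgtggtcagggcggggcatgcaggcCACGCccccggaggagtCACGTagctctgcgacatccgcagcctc
PDK3 (chrX:24465036-24465285, plus strand): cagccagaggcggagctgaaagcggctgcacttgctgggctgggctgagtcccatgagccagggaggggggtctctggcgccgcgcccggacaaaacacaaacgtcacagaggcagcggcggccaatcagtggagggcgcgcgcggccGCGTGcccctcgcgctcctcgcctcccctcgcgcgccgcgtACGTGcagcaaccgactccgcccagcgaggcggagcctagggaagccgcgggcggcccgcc
ENO2 (chr12:6914330-6914579, plus strand): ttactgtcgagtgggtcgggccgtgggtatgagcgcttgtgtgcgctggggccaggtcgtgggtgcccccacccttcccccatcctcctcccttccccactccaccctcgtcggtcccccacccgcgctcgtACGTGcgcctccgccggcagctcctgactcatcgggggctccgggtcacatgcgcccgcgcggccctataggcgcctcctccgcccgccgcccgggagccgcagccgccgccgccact
The HK2 window held 2 ACGTG and 1 GCGTG cores and the ALDOC window 3 and 2, whereas the SLC2A1 and EGLN3 windows held neither. Both genes that fell also carried a core: PDK3 had 1 of each kind and ENO2 had 1 ACGTG.

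Windows were found for 30 of the 35 members. A core of either kind lay in at least 1 window of 24 of these 30 genes (80.0%), against 47.4% of all 27305 genes with a window. ACGTG alone was in 19 of the 30 (63.3%) against 21.7% of all genes. The members had 59 windows for 30 genes and all genes 35116 for 27305, so members had more windows per gene in which to hold a core. Counted over windows of the same length, either core was in 54.2% of member windows against 43.2% of all. ACGTG was in 37.3% against 18.5%, and GCGTG in 28.8% against 32.2%. All genes were not matched to the members for expression or base composition, and some members are known HIF targets. By direction in R320*, a core was found for 11 of 15 members that were higher, 7 of 8 that were lower and 4 of 5 that were not called. A match is a description of the letters and not a binding site, and the windows leave out enhancers and first introns.

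Among the 33 members that reached 10 normalized counts in 3 or more libraries, 16 were higher in R320* (26.4% of all 14299 genes tested were) and 11 were lower (27.4% of all genes). The remaining 6 did not pass limma at an adjusted p of 0.05. Together 27 of 33 were called, against 53.7% of all genes tested. The median log2 fold change of the members (R320* minus WT, computed as log2(normalized count + 1)) was 0.10, against 0.01 over all genes, and the median size of change was 0.36 against 0.27. The 3 WT and 3 R320* values did not overlap in 31 of 33 members, against 59.8% of all genes. Most members lay far above the floor of 10 normalized counts, and the shares over all genes were not matched for level. Members were also chosen with earlier results of these data known. Most called changes were small, with 19 of 27 below 1.5-fold. The other 8 were split evenly, with SLC2A1, HK2, EGLN3 and ALDOC rising and SLC2A3, ENO2, SLC16A3 and PDK3 falling. In the count table, the called changes of 2-fold or more were the falls of these last 4 genes, and the largest rise was the 1.94-fold of SLC2A1. In the RPKM table, SLC2A1 rose 2.11-fold and PKLR, not tested in counts, 3.86-fold.

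**Figure D1:**
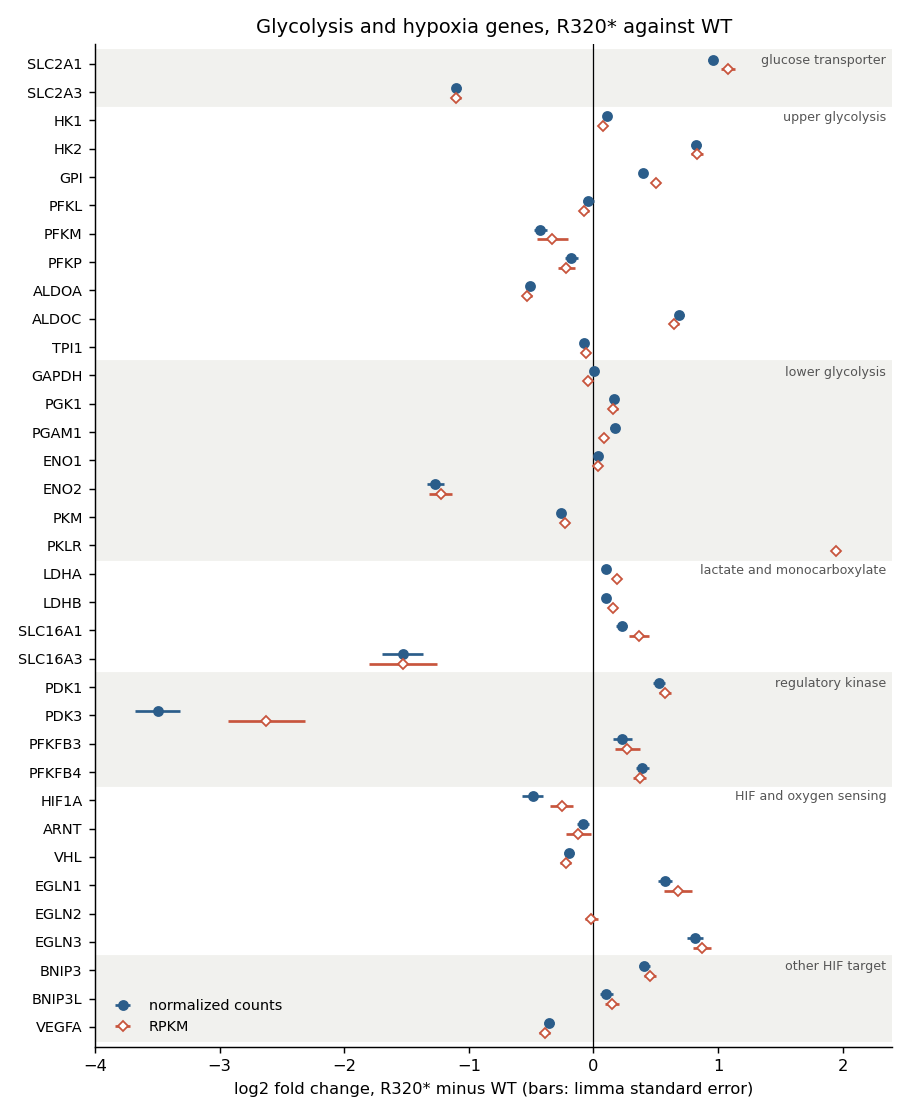
Log2 fold changes of the 35 members (horizontal axis, R320* minus WT) by role, as filled circles for normalized counts and open diamonds for RPKM, with limma standard errors as bars and 3 libraries per genotype. PDK3 lies farthest to the left at -3.50 in normalized counts, and PKLR, which has no circle, lies farthest to the right at 1.95 in RPKM.

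The glucose transporters moved in opposite directions. SLC2A1 encodes GLUT1, the main glucose carrier of red cells and of most dividing cells. It lies at chr1:42925353-42958868 and was counted at 4255, 4443 and 4412 in WT and 8469, 8349 and 8623 in R320*. Every R320* library was far above every WT library, a log2 fold change of 0.96 (SE 0.04, limma adjusted p = 2.25e-12). SLC2A3 encodes GLUT3, a high-affinity carrier best known in neurons and white blood cells (chr12:7919230-7936187). It came to 11073, 11737 and 11009 counts in WT and 5209, 5226 and 5312 in R320*, a log2 fold change of -1.10 (SE 0.04, limma adjusted p = 4.29e-13). SLC2A14, a close copy next to it, went from 335 ± 19.1 to 155 ± 17.3 (SD, n = 3), and the way reads were split between these copies is not stated. Per length, the order of the transporters turned over. SLC2A1 rose from 54.5 ± 2.13 to 115 ± 6.66 RPKM (SD, n = 3) and SLC2A3 fell from 136 ± 3.92 to 63.5 ± 2.21. In bulk RNA, a change in the number of cells of a type and a change in RNA per cell cannot be told apart.

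Among the 9 genes of upper glycolysis, 4 were higher, 3 were lower and 2 were not called. Hexokinases trap glucose in the cell as glucose phosphate. HK2, the inducible form, was counted at 4163, 3912 and 3729 in WT and 6803, 6982 and 7074 in R320*. Groups were well separated, at 1.77-fold (log2 0.82, SE 0.04, limma adjusted p = 1.18e-10). HK1, the constitutive form, rose only from 25857 ± 282 to 27842 ± 356 (log2 0.11, limma adjusted p = 0.00742). That call was lost in RPKM (adjusted p = 0.0991) and without an intensity trend (0.0673). HK1 was called in RPKM once the columns were brought to a common total (log2 0.15, 0.0136). That scaling moved the median log2 fold change of all genes tested in RPKM from 0.01 to 0.08. GPI, which turns glucose phosphate into fructose phosphate, rose from 13843 ± 346 to 18215 ± 274 (log2 0.40).

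Phosphofructokinase commits sugar to glycolysis and has liver, muscle and platelet subunits. The liver subunit PFKL did not pass the test at 10058 ± 78.3 in WT and 9794 ± 598 in R320* (SD, n = 3, limma adjusted p = 0.434). The muscle subunit PFKM fell from 2913 ± 104 to 2168 ± 145 (log2 -0.43, limma adjusted p = 3.94e-06), but its RPKM values of 53.8, 45.5 and 49.9 against 32.7, 44.0 and 42.7 did not pass (adjusted p = 0.0861). SENP1, which shares 727 bases with PFKM, was counted at 1865, 1755 and 1809 in WT and 1214, 1142 and 1022 in R320*, and reads of the shared stretch cannot be assigned without strand. PFKP, the platelet subunit, fell slightly, from 2228 ± 24.5 to 1971 ± 86.3 (log2 -0.18, limma adjusted p = 0.00604). In RPKM it was called at 0.0485, and lost that call when any 1 library other than R320* replicate 2 was left out (0.0760 to 0.139).

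Aldolase cleaves the doubly phosphorylated sugar. The general form ALDOA (chr16:30064279-30070420) was counted at 79016, 77801 and 78201 in WT and 55716, 53671 and 56075 in R320*. No value overlapped, with a fall of 0.51 on the log2 scale (SE 0.03, limma adjusted p = 8.67e-10). Among the 4 members highest per length (GAPDH, ENO1, ALDOA and LDHA) it was the only fall called, and LDHA was called higher. ALDOA shares 6136 bases with the annotated gene LOC112694756, for which no value is given here. ALDOC, the brain form, had 4837, 4813 and 4759 in WT and 7591, 7644 and 7999.8 in R320*, a 1.61-fold rise (log2 0.69, SE 0.04, limma adjusted p = 1.43e-10). TPI1, which interconverts the triose phosphates, missed the threshold, at 18317 ± 239 and 17346 ± 455 (limma adjusted p = 0.0529).

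Of the 6 tested genes of lower glycolysis, 2 were higher, 2 lower and 2 not called. GAPDH, the oxidising step, was counted at 84379, 84728 and 84098 in WT and 85777, 82379.9 and 85763 in R320*. Genotypes overlapped, with a log2 fold change of 0.00 (SE 0.03, limma adjusted p = 0.928). ENO1, the general enolase, stood at 87293 ± 75.6 and 89602 ± 500.3 (SD, n = 3, adjusted p = 0.306). Quantile normalization called GAPDH and ENO1 higher by 0.09 and 0.12 on the log2 scale (adjusted p = 0.00428 and 0.000717), so neither is independent of scaling. In RPKM, GAPDH was called lower by 0.07 without R320* replicate 1 (adjusted p = 0.0278). PGK1, which makes the first ATP of the pathway, rose from 13333 ± 125 to 14965 ± 195 (log2 0.17), and PGAM1, a phosphoglycerate mutase, from 8351 ± 115 to 9401 ± 301 (log2 0.17). PGAM1 was not called in RPKM as deposited (adjusted p = 0.0781) and was called with columns at a common total (log2 0.16, 0.0133).

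The largest change in counts of lower glycolysis was in ENO2, the neuronal enolase (chr12:6914580-6923697). It came to 1501, 1522 and 1572 counts in WT and 673, 657 and 580.3 in R320*. All R320* values were below all WT values, at a log2 fold change of -1.27 (SE 0.07, limma adjusted p = 1.96e-10). PKM, the pyruvate kinase of most dividing cells, fell from 13610.1 ± 304 to 11349 ± 268 (log2 -0.26, limma adjusted p = 6.71e-06). Gene totals do not separate its alternatively spliced forms.

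Genes of lactate handling included 3 rises, all small, and 1 large fall. LDHA and LDHB encode the subunits of lactate dehydrogenase, and each rose by 0.10 on the log2 scale, from 58905 ± 388 to 63309 ± 1371 and from 25616 ± 439 to 27522 ± 516 (SD, n = 3). Neither call held without an intensity trend (limma adjusted p = 0.0805 and 0.0863). LDHB also missed the threshold without WT replicate 1 (0.0545) or without R320* replicate 2 (0.0555). SLC16A1 encodes MCT1, a carrier of lactate and pyruvate, and rose from 6401 ± 238 to 7494 ± 383 (log2 0.23, limma adjusted p = 0.00029). SLC16A3 encodes MCT4, the lactate exporter typical of strongly glycolytic cells (chr17:82217934-82240086). It was counted at 301, 303 and 245 in WT and 82.4, 115 and 95.3 in R320*. Groups were far apart at these low counts, with a log2 fold change of -1.53 (SE 0.17, limma adjusted p = 8.42e-07). CSNK1D, which shares 1068 bases with SLC16A3, had 6098, 6143 and 6331 in WT and 5868, 5712 and 6116 in R320*.

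**Figure D2:**
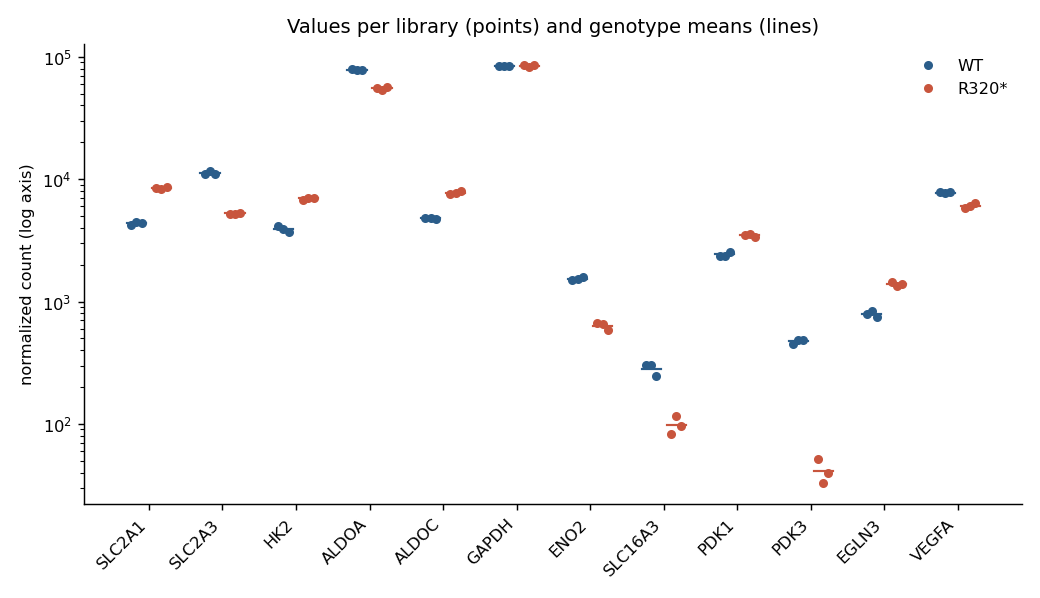
Normalized counts (vertical log axis) of 12 members, with 1 point per library and a line at the mean of 3, WT in blue and R320* in red. SLC2A1 and SLC2A3 exchange places, GAPDH overlaps between genotypes, and PDK3 drops to between 32.7 and 52.0 in R320*.

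The regulatory kinases gave the largest fall of all members. PDK3, an X-linked pyruvate dehydrogenase kinase (chrX:24465286-24550466), was counted at 449.8, 482 and 485 in WT and 52.0, 32.7 and 40.0 in R320*. WT was 11.4-fold above R320*, a log2 fold change of -3.50 (SE 0.18, limma adjusted p = 9.89e-11). In RPKM it went from 3.33 ± 0.376 to 0.477 ± 0.194 (SD, n = 3), and the log2 fold change was -2.63 on the log2(RPKM + 0.1) scale. PDK1, the form known as a HIF target, moved the other way: 2338, 2371 and 2557 in WT and 3524, 3572 and 3344 in R320*. Its values did not overlap, with a log2 fold change of 0.52 (SE 0.05, limma adjusted p = 1.13e-07). PFKFB3 and PFKFB4 make the sugar bisphosphate that activates phosphofructokinase. PFKFB4 rose from 2207 ± 140.0 to 2896 ± 146 (log2 0.39, limma adjusted p = 1.32e-05) and PFKFB3 from 723 ± 46.8 to 849.5 ± 40.9 (log2 0.23, limma adjusted p = 0.0153). The PFKFB3 call was lost without WT replicate 3 (0.0713), without R320* replicate 2 (0.0654) and in RPKM as deposited (0.0867), though not in RPKM at a common total (0.0484).

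Of the 5 tested genes of HIF and oxygen sensing, 2 were higher, 2 lower and 1 not called. Both rises were in hydroxylases that lead the HIF alpha subunit to destruction. EGLN3, itself a known HIF target, was counted at 789.7, 831 and 752 in WT and 1431, 1339 and 1398 in R320*, a 1.76-fold difference without overlap (log2 0.81, SE 0.06, limma adjusted p = 1.79e-08). EGLN1, the main oxygen sensor of most cells, had 1151, 1068 and 1062 in WT and 1588, 1665 and 1629 in R320* (log2 0.57, SE 0.06, limma adjusted p = 3.16e-07). The alpha subunit gene HIF1A fell, with 794, 861 and 868 in WT and 627, 640.0 and 534 in R320* (log2 -0.49, SE 0.08, limma adjusted p = 0.000118). Its RPKM values of 25.3, 22.0 and 25.3 against 18.6, 19.7 and 22.5 overlapped and did not pass (adjusted p = 0.0796). HIF1A-AS3 lies over 32701 bases of HIF1A, and whether the counting used strand is not stated. VHL fell from 5323 ± 82.6 to 4648 ± 130.5 (log2 -0.20, limma adjusted p = 0.000413). ARNT, the partner subunit, was 2177 ± 55.5 and 2053 ± 62.1 and was not called (limma adjusted p = 0.151).

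The remaining HIF targets did not move together. VEGFA, the vascular growth factor, fell from values of 7826, 7667 and 7822 in WT to 5781, 6062 and 6379 in R320* (log2 -0.36, SE 0.04, limma adjusted p = 1.25e-06). BNIP3 and BNIP3L are mitochondrial receptors for mitophagy, and BNIP3L clears mitochondria from maturing red cells. BNIP3 rose from 3125 ± 105 to 4149 ± 42.1 (log2 0.41, limma adjusted p = 3.79e-07), and BNIP3L was not called at 2135 ± 83.5 and 2294 ± 92.8 (adjusted p = 0.0949). For BNIP3, 39 pseudogenes in the RPKM table held 9.73% of the RPKM of gene and pseudogenes together, and how reads were split among these copies is not stated. BNIP3L passed with upper quartile scaling (0.0311) and in RPKM at a common column total (0.0303).

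In the RPKM table, all 35 members were tested, and 14 were higher (15.1% of all 17769 genes tested) and 9 lower (16.8% of all). The 23 calls compare with 31.9% of all genes, again not matched for level. Of the members, 30 did not overlap between genotypes, against 47.0% of all genes. Both tables called 22 members, all 22 in the same direction. The count table alone called 5 (HK1, PFKM, PGAM1, PFKFB3 and HIF1A), and the RPKM table alone called PKLR. Both tables come from the same 6 libraries, so the second is no independent replicate. Per length, averaged over the 6 libraries, GAPDH stood highest at 2391 RPKM, followed by ENO1 at 1762, ALDOA at 1417 and LDHA at 1214, and SLC16A3 at 3.11 and PDK3 at 1.90 were lowest.

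The tables disagreed on PKLR, the pyruvate kinase of liver and red cells (chr1:155289293-155308654). It had at most 5.88 normalized counts in any library and was too low to test there. It read 40.2, 39.4 and 39.6 RPKM in WT and 154, 151 and 155 in R320*, a log2 fold change of 1.95 (limma adjusted p = 2.26e-06) and the largest rise of any member. HCN3 shares 556 bases with PKLR and showed the same split, with at most 1.98 normalized counts and 6.54 ± 0.610 RPKM in WT against 17.3 ± 2.08 in R320* (SD, n = 3). FDPS, a sterol-pathway enzyme that starts 212 bases away, was seen in both tables and rose from 4429 ± 78.0 to 6563 ± 419 normalized counts. EGLN2, another HIF hydroxylase, had at most 9.10 normalized counts in any library, and 53.2 ± 1.63 and 52.6 ± 2.85 RPKM with no call (adjusted p = 0.85). It lies wholly inside the read-through gene RAB4B-EGLN2, which is at 0 counts, as is RAB4B, whose RPKM was 17.9 ± 0.948 in WT and 12.9 ± 1.14 in R320*. The PKLR and EGLN2 results therefore rest on the RPKM table alone.

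Isozyme shares were computed from RPKM, which sets genes side by side per length, and each sum covered members only. Genes left out include PDK2 (mean 1.46 RPKM in WT and 3.22 in R320*), PDK4 (2.67 and 0.990) and ENO3 (9.94 and 9.34). SLC2A1 held 28.2%, 27.5% and 29.9% of the SLC2A1 plus SLC2A3 sum in WT and 63.5%, 65.2% and 64.6% in R320*, a shift of 35.9 points. PKM held 83.2%, 83.8% and 83.7% of the pyruvate kinase sum in WT and 53.1%, 52.8% and 53.0% in R320*, the rest being PKLR. That shift of -30.6 points needs the RPKM values of PKLR: with normalized counts per exon length it was -0.0136 points. PDK1 went from 86.9% ± 1.05 to 98.6% ± 0.600 of the PDK1 plus PDK3 sum (SD, n = 3), a shift of 11.7 points. With counts per exon length, which divide PDK1 by 14253 bases and PDK3 by 2513, the shift was 46.2 points. Its size therefore depends on the measure.

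Smaller shifts were seen in other families. The ALDOA share fell by 6.89 points, from 93.7% ± 0.139 to 86.8% ± 0.485, and the HK1 share by 5.19 points, from 91.3% ± 0.304 to 86.1% ± 0.321 (SD, n = 3). SLC16A1 gained 4.58 points over SLC16A3, BNIP3 4.67 over BNIP3L, PFKL 3.60 over the other subunits and ENO1 0.932 over ENO2. Without R320* replicate 1 the PFKL gain was 2.20 points. The shares of PFKM, PFKP, PFKFB3 and LDHA overlapped between genotypes, with LDHA at 58.3% ± 0.363 and 58.7% ± 0.463. Of 13 shares, 9 did not overlap, each with an exact two-sided permutation p of 0.1, the smallest that 3 against 3 allows (0.144 after Benjamini-Hochberg adjustment over the 13). No share could therefore pass a threshold of 0.05.

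**Figure D3:**
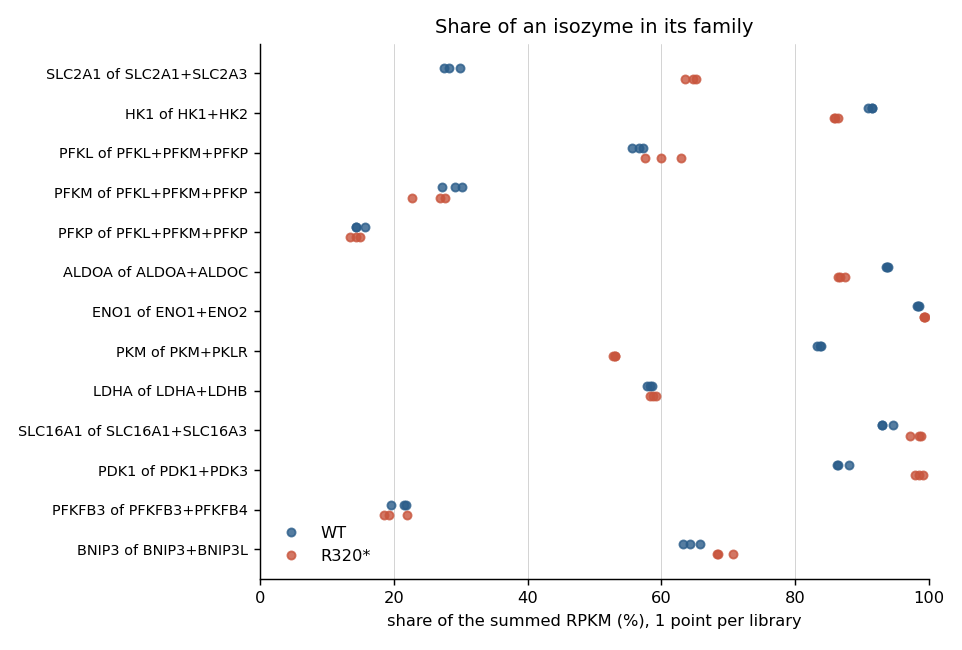
Share of each named isozyme in the summed RPKM of the members of its family (horizontal axis, percent), with 1 point per library, WT in blue and R320* in red. The SLC2A1 share stands at 27.5 to 29.9% in WT and 63.5 to 65.2% in R320*, while the LDHA points overlap.

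Genes near each other on a chromosome can change together, so each member was set beside the 25 tested genes on either side of it. The neighbour medians of the members ran from -0.69 to 0.30 on the log2 scale. After the neighbour median was subtracted, 26 of the 27 called members kept their sign (24 of 27 with 10 neighbours on each side, 26 with 50). PFKM was the exception: it fell by 0.43 while its neighbours fell by 0.69, and only 10.0% of them were higher in R320*. With 10 neighbours on each side, VHL (-0.20 against a median of -0.24) and LDHB (0.10 against 0.13) also lost their sign. For PDK3 the neighbour median was -0.01, for ENO2 -0.02, for SLC2A3 -0.06 and for HK2 -0.09. SLC2A1 lay among genes that were mostly higher (72.0% of them, median 0.17) and stood 0.79 above that median.

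**Figure D4:**
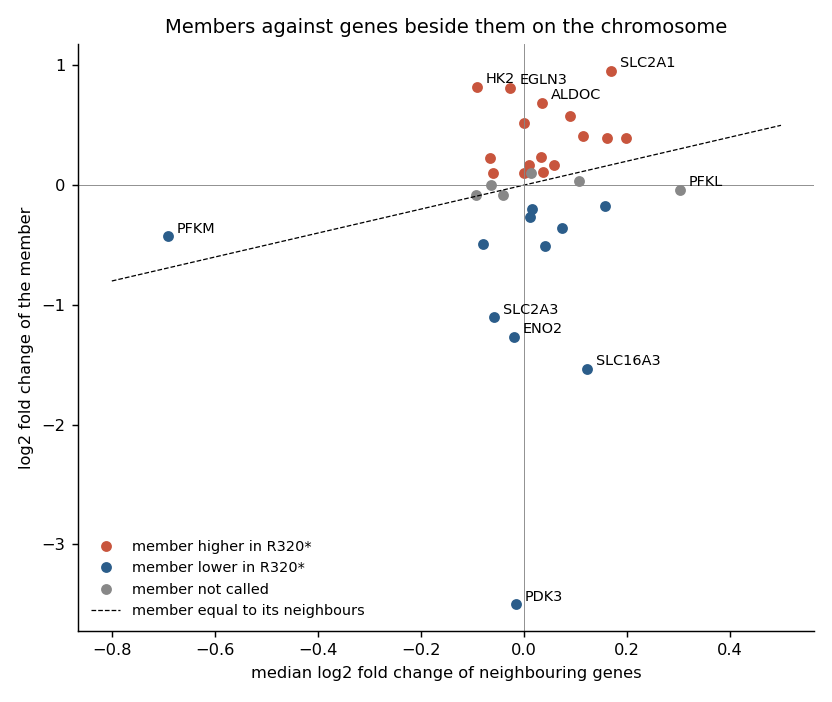
Log2 fold change of each tested member (vertical axis) against the median of its up to 50 neighbouring genes (horizontal axis), in red for members higher in R320*, blue for lower and grey for not called. PFKM is the point at the far left, above the dashed line of equality, and PDK3 lies at the bottom with neighbours near 0.

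Genes around the pathway were read from lists chosen by function. Of 34 genes for other isozymes and sugar transporters, 20 reached the count filter, and of these 7 were higher, 5 lower and 8 not called (median 0.23, with 53.7% of all tested genes called). SLC2A4, the insulin-responsive GLUT4, went from 84.6 ± 10.8 to 213 ± 22.1 normalized counts (log2 1.32, limma adjusted p = 6.45e-06) and SLC2A6, a lysosomal hexose carrier, from 26.2 ± 19.0 to 78.1 ± 21.6 (log2 1.72). In RPKM, SLC2A6 overlapped between genotypes and was not called (log2 0.85, adjusted p = 0.18). Low-count rises were also called in LDHD, a dehydrogenase of D-lactate (21.4 ± 5.63 to 53.8 ± 13.1), and PGAM2, the muscle mutase (35.2 ± 17.9 to 73.5 ± 18.9). PGAM2 is listed at 0 RPKM in all 6 libraries, and LDHD was too low in RPKM to be tested. RPKM called fewer genes of this list, 6 in place of 12. Of 14 genes, all tested, that bring pyruvate into mitochondrial metabolism, 5 were higher, 4 lower and 5 not called (median 0.05), again beside 53.7% of all genes called. PDK2 rose from 81.0 ± 13.7 to 168 ± 8.18 (log2 1.06) and PDK4 fell from 245 ± 22.9 to 93.9 ± 3.05 (log2 -1.37), so all 4 pyruvate dehydrogenase kinases were called, 2 in each direction. PDP2, a phosphatase that reverses their action, rose from 874 ± 48.9 to 1437 ± 27.6 (log2 0.72), and the pyruvate carrier subunit MPC2 fell from 3154 ± 153 to 1936 ± 78.7 (log2 -0.70). The PDK2 rise was not called in RPKM (adjusted p = 0.0862).

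HIF pathway genes beyond the members gave 2 higher, 3 lower and 9 not called of 14 tested out of 16 (median -0.03), so 5 of 14 were called against 53.7% of all genes. ELOB and ELOC, the elongins that hold VHL in its ligase, fell from 3421 ± 217 to 2909 ± 225 and from 2882 ± 126 to 2265 ± 59.3. ELOC was also called in RPKM and ELOB was not (adjusted p = 0.0583). SIAH2, a ligase that removes EGLN proteins, rose from 1122 ± 111 to 1314 ± 29.6, and the VHL-binding VBP1 from 1751 ± 112 to 2131 ± 120.0. The SIAH2 values overlapped in RPKM and were not called there (adjusted p = 0.221). Among 31 tested of 36 other HIF target genes (of which TFRC is also a K562 marker and GYS1 also a glycogen gene), 14 were higher (26.4% of all genes tested), 9 lower (27.4% of all) and 8 not called (median 0.12). CA9, a carbonic anhydrase widely used as a hypoxia marker, rose from 25.1, 16.0 and 24.3 to 139, 141 and 121 normalized counts (log2 2.59, SE 0.26, limma adjusted p = 3.65e-07). STC2, a secreted glycoprotein, fell from 2384 ± 169 to 927 ± 24.5 (log2 -1.36), and ANGPTL4, a lipase inhibitor, from 79.5 ± 10.1 to 40.5 ± 16.9 (log2 -1.05). PPFIA4, a liprin, rose from 568 ± 55.3 to 1028 ± 70.2 (log2 0.86).

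Of 12 tested genes, out of 14, that sense glucose or set the activity of glycolysis, 6 were higher, 1 lower and 5 not called (median 0.11). The 7 calls stand beside 53.7% called over all genes. MYC, a transcription factor that raises many glycolytic genes, was counted at 11179, 11127 and 11434 in WT and 25127, 24966 and 24969.6 in R320*, a 2.22-fold rise (log2 1.15, SE 0.03, limma adjusted p = 3.12e-14). The glucose-responsive factors moved in opposite directions, with MLXIP (MondoA) falling from 14286 ± 471 to 7821 ± 348 (log2 -0.87) and MLXIPL (ChREBP) rising from 747 ± 44.5 to 1242 ± 117 (log2 0.73).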

How the data were processed

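RNA was measured in 6 K562 libraries, 3 per genotype. The deposited signal values are normalized read counts per Entrez gene, and the RPKM values were made by the authors per Ensembl gene. HISAT2, featureCounts, DESeq2, Salmon and hg38 are named per the submitters' processing notes, without versions, and which of them made which table is not recorded there. RPKM columns do not sum to a fixed total, so a related per-length scale is possible. RefSeq gave a symbol for 27745 of 28395 Entrez identifiers.

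Genes that reached 10 normalized counts in 3 libraries were fitted as log2(normalized count + 1), and those that reached 0.5 RPKM in 3 libraries as log2(RPKM + 0.1), over all genes with limma 3.58.1 in R 4.3.3 (empirical Bayes, intensity trend). Calls were made at a Benjamini-Hochberg adjusted p below 0.05. Scripts were tested on simulated data. Isozyme shares were compared by exact permutation in Python 3.11.15 (pandas 2.3.3, NumPy 2.4.6), and figures were drawn with matplotlib 3.10.9.

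The labels name no separate cultures, so the spread behind each p-value is that between these libraries and may be technical. Members and lists were chosen with earlier results of these data known. Every member is named, with RUNX1 and up to 4 genes per list: those called with the largest change, 50 or more normalized counts on average in the higher genotype and no overlap; 1 gene that fits is not reported here. Genes that overlap a member, share its sequence or lie next to PKLR or EGLN2 were added for what they share with it. Marker lists covered K562, T and NK cells, B cells, monocytes, fibroblasts, epithelium and endothelium. Alternatives were other pseudocounts, filters, scalings, no intensity trend, the replicate block and each library left out.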

Additional observations from a re-analysis of the deposited data

How the results depend on the processing

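Each of the 27 members called in normalized counts kept its direction under every alternative run. The count of members called higher ran from 13 to 18 and of those called lower from 9 to 12, against 16 and 11. With 1 library left out the counts were 14 to 16 and 11 to 12 for members, and 3310 to 3547 and 3553 to 3814 for all genes. Members called in RPKM numbered 12 to 14 higher and 8 to 9 lower with 1 library left out. Over single genes and settings for the count calls, with RPKM as 1 of the settings, 543 values kept their side of the threshold. Another 12 lost the call, 5 of them in that RPKM setting, and 6 gained it. For the RPKM calls, 396 values kept their side, 18 lost the call and 6 gained it. TPI1 passed with a filter of 50 (0.0492) and without R320* replicate 3 (0.0176).

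With normalized counts per exon length in place of RPKM, the share differences were 33.8 points for SLC2A1, -5.73 for HK1, -7.47 for ALDOA, 0.779 for ENO1, -0.0136 for PKM, 0.00535 for LDHA, 2.67 for SLC16A1 and 46.2 for PDK1. In RPKM, calls numbered 6 for other isozymes, 5 for pyruvate entry and 3 for other HIF pathway genes. In normalized counts, the last list had 2 calls without an intensity trend and 3 to 5 with 1 library left out.

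Libraries of the same number correlated in their deviations at -0.00 to 0.03, and others at -0.04 to 0.04, so the numbers were not taken to pair samples. With the replicate block, 16 members were higher and 12 lower in normalized counts, TPI1 being added (adjusted p = 0.0433), and 13 and 8 in RPKM.

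In RPKM, PFKP is close to the threshold and lost its call with the block (0.0594), with no filter (0.0750) and with columns brought to a common total (0.243). PGK1 lost its RPKM call with the block (0.0681), with no filter (0.0544) and without any 1 library other than WT replicate 2 (0.0655 to 0.0882), SLC16A1 without WT replicate 1 (0.0528) or 3 (0.0543), and VHL at a common total (0.0895). The common total raised the median log2 fold change of all genes tested in RPKM from 0.01 to 0.08. With that shift, calls were gained by HK1 (0.0136), PGAM1 (0.0133), PFKFB3 (0.0484) and BNIP3L (0.0303). HIF1A passed in RPKM without R320* replicate 3 (0.0421). Tests by edgeR and DESeq2 were planned but not run. Members under about 100 normalized counts in a genotype, SLC16A3 and PDK3, have the widest errors.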

Other observations

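Among 12 tested genes of the pentose phosphate pathway, which turns glucose phosphate into ribose and reducing power, 6 were higher, 4 lower and 2 not called in R320* (median log2 fold change 0.13, with 53.7% of all tested genes called). The isomerase RPIA rose from 1599 ± 84.1 to 2826 ± 65.9 normalized counts (SD, n = 3, log2 0.82, limma adjusted p = 9.48e-10) and the epimerase RPE from 1231 ± 129 to 1634 ± 12.4 (log2 0.41). The transaldolase TALDO1 fell from 11786 ± 424 to 7961 ± 121 (log2 -0.57), and TKTL1, a transketolase-like gene on chromosome X, from 185, 205 and 128 to 26.5, 47.6 and 21.0 (log2 -2.47, SE 0.29, limma adjusted p = 2.08e-06).

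Of 15 tested genes, out of 18, of glycogen and gluconeogenesis, 4 were higher, 2 lower and 9 not called (median 0.03), again beside 53.7% of all genes called. Both falls were in glycogen phosphorylases, which release glucose phosphate from glycogen: PYGL, the liver form, went from 715, 668 and 687 to 380.4, 341 and 344 (log2 -0.96, SE 0.09, limma adjusted p = 1.16e-07), and PYGB, the brain form, from 1192, 1197 and 1179 to 728, 722 and 765 (log2 -0.69, SE 0.06, limma adjusted p = 1.14e-07). PHKA2, a subunit of the kinase that activates them, rose from 1199.9 ± 48.9 to 1544 ± 27.4 (log2 0.36), and the phosphoglucomutase PGM2 from 2411 ± 40.6 to 3023 ± 138 (log2 0.33).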
